A study of Homo sapiens with 9 samples.

Results

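Polycomb repressive complex 2 (PRC2) and the DNA methylation machinery were followed as 10 genes of the 25084 in the series, in LAN5 cells in which MYCN or HAND2 had been lowered with small interfering RNA (siRNA). The members are EZH2, EZH1, EED, SUZ12 and JARID2 of PRC2, and DNMT1, UHRF1, DNMT3A, DNMT3B and TET1 of the DNA methylation system. They were chosen by gene symbol, and each of the 10 has 1 row in the table and passed the filter on low values. LAN5 is an established human neuroblastoma line. RNA was sequenced from 9 libraries, in groups of 3 that received a control siRNA (siCTR), the MYCN siRNA named siMYCN_2 in the labels (siMYCN) or the HAND2 siRNA named siHAND2_3 (siHAND2). The siRNAs were brought in by electroporation, and RNA was taken 72 h later from cells kept in serum-containing medium. Each knockdown rests on 1 siRNA in 1 cell line. Nothing in the labels says that the libraries of a group came from separate cultures, so p-values measure the spread between these libraries, which may be technical.

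PRC2 places methyl groups on lysine 27 of histone H3, a mark of silenced genes. EZH2 or its relative EZH1 is the catalytic subunit, and neither works without EED, which reads the mark, and SUZ12, which holds the complex together. JARID2 is an accessory subunit that helps to guide the complex to its sites. DNA methylation works on cytosines that precede a guanine (CpG). DNMT3A and DNMT3B place new methyl groups there, DNMT1 copies them to the daughter strand after replication with the help of UHRF1, and TET1 oxidises them as a step towards removal. EZH2 has been described as a dependency of neuroblastoma with MYCN amplification, which LAN5 carries, and dividing cells generally hold more EZH2, DNMT1 and UHRF1 than resting cells.

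The windows upstream of EZH2, EZH1 and DNMT3A are shown because EZH2 and DNMT3A are the 2 members whose transcripts rose most and EZH1 is the alternative to EZH2 in the complex. Each is the 250 bases before the RefSeq start nearest to the 5′ end of the gene in the table (GRCh38.p14, minus strand, written 5′ to 3′ on that strand), and capitals mark CpG, the site of DNA methylation.
EZH2, chr7:148884292-148884541: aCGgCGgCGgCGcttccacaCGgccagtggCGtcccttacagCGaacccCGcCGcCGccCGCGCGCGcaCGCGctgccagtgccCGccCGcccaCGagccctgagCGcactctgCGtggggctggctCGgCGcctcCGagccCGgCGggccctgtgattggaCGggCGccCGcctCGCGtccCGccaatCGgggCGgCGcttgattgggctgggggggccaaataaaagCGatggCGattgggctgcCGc
EZH1, chr17:42745041-42745290: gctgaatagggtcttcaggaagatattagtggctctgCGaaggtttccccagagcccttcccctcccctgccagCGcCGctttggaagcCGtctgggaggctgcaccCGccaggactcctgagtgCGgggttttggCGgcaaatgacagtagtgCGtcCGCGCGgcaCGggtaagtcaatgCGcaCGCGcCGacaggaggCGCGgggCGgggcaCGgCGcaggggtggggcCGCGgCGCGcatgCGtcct
DNMT3A, chr2:25342591-25342840: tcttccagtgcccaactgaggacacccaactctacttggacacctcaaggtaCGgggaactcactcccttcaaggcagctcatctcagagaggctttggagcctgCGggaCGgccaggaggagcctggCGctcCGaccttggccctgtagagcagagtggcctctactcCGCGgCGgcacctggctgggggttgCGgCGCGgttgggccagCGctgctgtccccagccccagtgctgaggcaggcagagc

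The EZH2 window holds 38 CpG, the EZH1 window 26 and the DNMT3A window 12, where the median of 35116 windows of the same length is 11. The EZH2 window lies at the 97.3 percentile of that count. A search on both strands for the canonical E-box CACGTG, the letters that MYC-family factors prefer, matched none of the 10 members' windows, against 6.34% of all windows. The E-box CATCTG matched only EED (12.2% of all windows). The E2F-type letters TTTNNCGC, where N is any base, matched EZH1, SUZ12 and UHRF1 (5.92% of all windows), with the UHRF1 matches TTTCTCGC and, on the other strand, GCGGGAAA. The nearest RefSeq starts of UHRF1, DNMT1 and DNMT3B lie 6421, 36333 and 17467 bases from the 5′ ends of those genes in the table. These are matches of letters, and nothing about binding was measured.

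The libraries held 21.1 to 32.7 M reads assigned to genes, as read from the smallest steps of the CPM values (reads scaled to an equal library total). MYCN stood at 70.0% of its siCTR mean in siMYCN and at 49.6% in siHAND2, and HAND2 at 114% and 54.2%, so MYCN transcript was lower in siHAND2 than in siMYCN. Replicate 3 of siHAND2 differed more from its group than any other library: the chi-square per degree of freedom was 8.13 and 8.88 in its 2 pairs and 2.90 to 5.76 in the other 7. All 12 noradrenergic neuroblastoma markers had a mean of at least 1 CPM, and they summed to 2867 to 3020 CPM in siCTR, 3483 to 3597 in siMYCN and 2964 to 3106 in siHAND2. By the limma test described below, 9 of these 12 rose and 0 fell in siMYCN, and 3 rose and 4 fell in siHAND2. Their log2 fold changes in siHAND2 ran from -1.01 to 1.39, so the similar sums in siCTR and siHAND2 hide large changes in both directions. The shares over all genes tested were 24.5% higher and 11.4% lower in siMYCN, and 18.1% higher and 11.8% lower in siHAND2. No Schwann, leukocyte or endothelial marker had a mean of at least 1 CPM, and none was tested. PTPRC, CDH5 and PECAM1 lay below 0.1 CPM in every library. Of 10 fibroblast or mesenchymal markers, 7 reached that mean, and the list summed to 691 to 742 CPM in siCTR, 933 to 977 in siMYCN and 1351 to 1525 in siHAND2. Among the 7 mesenchymal markers tested, 6 rose and 0 fell in siMYCN, and 7 rose and 0 fell in siHAND2. DCN, 1 of these 7, was low in siCTR and passed the filter on low values through the knockdown libraries. Its rises therefore partly follow from that filter. The part of the noradrenergic and mesenchymal markers in the results below was not tested, and in such bulk samples fewer cells of a type and less RNA per cell cannot be told apart.

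In the control cells the members spanned a wide range of levels per transcript length (CPM per kilobase of the canonical GENCODE transcript). UHRF1 was highest, at 59.3 ± 2.27 CPM per kb (SD, n = 3 libraries, as for all values with ±), followed by DNMT1 at 40.7 ± 2.30. EZH2 stood at 22.6 ± 0.634, above its obligate partners SUZ12 (16.3 ± 0.869) and EED (10.1 ± 0.272). DNMT3A measured 14.8 ± 0.284, JARID2 12.6 ± 0.586, TET1 11.2 ± 0.209 and EZH1 7.64 ± 0.188 CPM per kb. DNMT3B was lowest, at 2.38 ± 0.193. No neighbours in this order overlapped over the 3 siCTR libraries. In both knockdowns DNMT3A stood above SUZ12, and the ranges of TET1 and EED overlapped. In siHAND2 those of JARID2 and TET1 overlapped too. The transcripts that these cells use are not known, so the order depends on the canonical lengths.

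**Figure D1:**
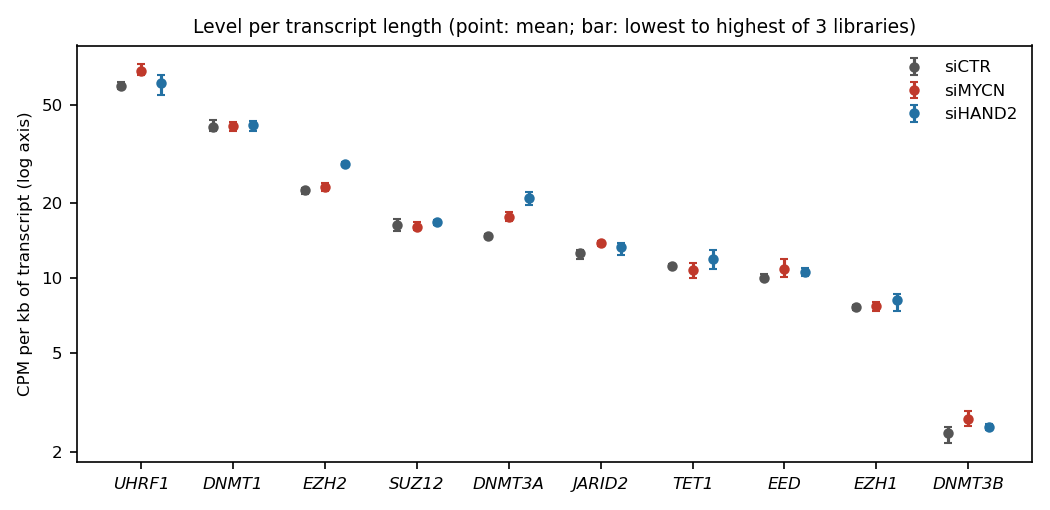
Level of the 10 genes in CPM per kilobase of canonical transcript (log axis) in siCTR, siMYCN and siHAND2; points are means and bars run from the lowest to the highest of 3 libraries. UHRF1 and DNMT1 lead in every group, DNMT3B is lowest, and DNMT3A passes SUZ12 in both knockdowns.

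Differences between groups were tested on log2(CPM + 1) with limma over all 14495 genes that passed the filter, and p-values were adjusted by Benjamini-Hochberg over all of them. In siMYCN, 2 of the 10 members rose and 0 fell, where 35.9% of all genes tested were called, 24.5% higher and 11.4% lower. In siHAND2, 2 members rose and 0 fell, where 29.9% of all genes were called, 18.1% higher and 11.8% lower. Between siHAND2 and siMYCN, 2 members were higher and 1 lower in siHAND2, beside 26.9% of all genes called, 11.4% higher and 15.5% lower. With only 10 members, their shares of 20%, 20% and 30% cannot be set apart from these backgrounds. The siMYCN count ran from 1 to 3 over the alternative fits. Their median log2 fold change was 0.07 in siMYCN and 0.08 in siHAND2, beside 0.06 and 0.04 over all genes tested.

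EZH2 (chromosome 7, 148807383 to 148884321, minus strand, GRCh38) was higher with the HAND2 siRNA. MYCN transcript was also lower there, at 49.6% of siCTR, against 70.0% in siMYCN. The part of the lower MYCN in differences between siHAND2 and the other groups was not tested. EZH2 measured 60.7, 58.1 and 61.3 CPM in the siCTR libraries, against 59.8, 64.4 and 61.0 with the MYCN siRNA and 77.6, 74.8 and 77.8 with the HAND2 siRNA. The 3 siHAND2 libraries lay above the other 6 libraries, while siMYCN and siCTR overlapped. The means were 60.01 ± 1.68, 61.7 ± 2.39 and 76.7 ± 1.67 CPM, so siHAND2 stood at 128% of siCTR. The log2 fold change was 0.35 in siHAND2 (standard error 0.05, limma, adjusted p = 2.58e-05). Of all genes tested, 11.9% differed by at least that much. In siMYCN it was 0.04 (95% interval -0.06 to 0.14, adjusted p = 0.541), with a sign that turned after rescaling of the libraries. The direct comparison separated the knockdowns by 0.31 (adjusted p = 8.42e-05). These 2 EZH2 calls held in each of the 19 alternative fits, with 0.31 to 0.37 against siCTR.

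EZH1 (chromosome 17, 42700275 to 42745049), the catalytic subunit that prevails in cells that have stopped dividing, showed no such step. It had siCTR values of 34.4, 36.1 and 35.6 CPM, siMYCN values of 37.05, 34.3 and 36.0 CPM and siHAND2 values of 39.9, 34.1 and 39.0 CPM, with overlap between all groups. Its log2 fold change was 0.02 in siMYCN (95% interval -0.11 to 0.14, adjusted p = 0.869) and 0.09 in siHAND2 (-0.04 to 0.21, adjusted p = 0.312). Its siMYCN value turned negative after rescaling of the libraries. The log2 ratio of EZH2 to EZH1 within each library, which needs no scaling between libraries, came to 0.80, 0.67 and 0.77 under the control siRNA, 0.68, 0.89 and 0.74 under siMYCN, and 0.94, 1.11 and 0.98 under siHAND2. All 3 siHAND2 ratios lay above all siCTR and siMYCN ratios. The ratio was 0.26 higher in siHAND2 than in siCTR (two-sided exact permutation test, p = 0.1, the smallest that 3 against 3 libraries allow). In siMYCN the difference was 0.02 (exact permutation p = 0.9), which changed sign without siCTR replicate 2 (-0.01) or siMYCN replicate 2 (-0.04).

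The other core subunits did not pass the test in any comparison. EED (chromosome 11, 86244753 to 86278813) gave 21.6, 20.9 and 20.5 CPM under the control siRNA, 22.2, 24.8 and 21.1 under siMYCN and 21.7, 21.3 and 23.0 under siHAND2. SUZ12 (chromosome 17, 31937007 to 32001038) measured 77.6, 72.8 and 69.9 CPM in the siCTR libraries, against 71.9, 70.0 and 75.7 with the MYCN siRNA and 73.3, 77.0 and 75.7 with the HAND2 siRNA. For both genes the groups overlapped. The 95% intervals in siHAND2, the group in which EZH2 rose, ran from -0.07 to 0.20 for EED and from -0.07 to 0.14 for SUZ12 on the log2 scale. Neither reached the EZH2 value of 0.35. The SUZ12 value in siHAND2 (0.04) was -0.0026 after median-ratio rescaling. SUZ12 has a partial copy, SUZ12P1, with its own row at 16.4, 17.5 and 18.9 CPM on average in the 3 groups, and how reads were shared between them is not stated.

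JARID2 (chromosome 6, 15246069 to 15522042) had siCTR values of 78.3, 71.8 and 77.3 CPM, siMYCN values of 82.6, 80.8 and 84.9 CPM and siHAND2 values of 82.8, 83.3 and 74.1 CPM. Each siMYCN library exceeded each siCTR library, and siHAND2 overlapped both. Its log2 fold change of 0.13 in siMYCN missed the threshold (95% interval 0.02 to 0.24, limma, adjusted p = 0.0718). Without siHAND2 replicate 3, its lowest knockdown value, JARID2 passed in siMYCN (adjusted p = 0.0238) and in siHAND2 (0.13, adjusted p = 0.0439, from 0.08 and 0.292). Among all genes tested, 49.5% had siMYCN and siCTR libraries that did not overlap and 42.4% had siHAND2 and siCTR libraries that did not, beside 4 and 2 of the 10 members. Between the knockdowns 38.7% of all genes and 2 members did not overlap.

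**Figure D2:**
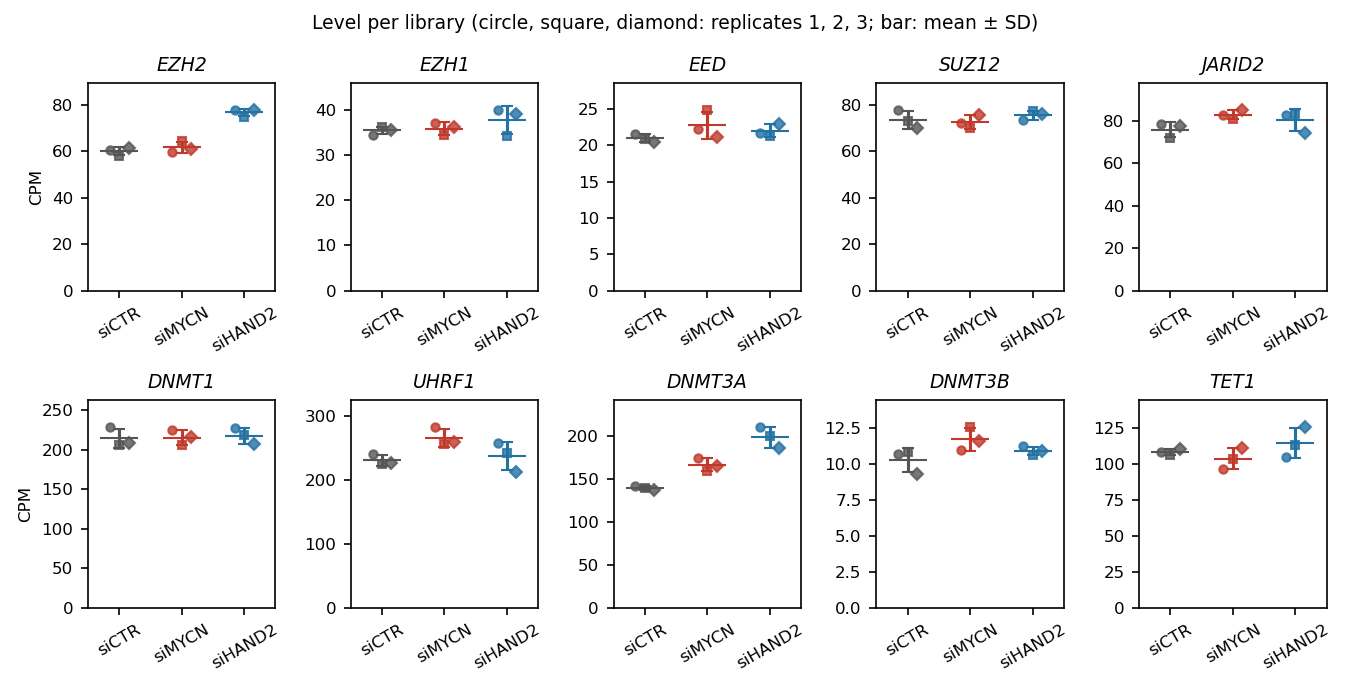
CPM of each member in every library; circles, squares and diamonds are replicates 1, 2 and 3, and bars give the mean ± SD of 3 libraries. EZH2 in siHAND2 (74.8 to 77.8 CPM) and DNMT3A in both knockdowns stand clear of siCTR, while DNMT1, SUZ12, EED and EZH1 overlap between groups.

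DNMT3A (chromosome 2, 25227855 to 25342590, minus strand), a writer of new DNA methylation, was the only member called in all 3 comparisons together. It gave 142, 139.5 and 136 CPM under the control siRNA, 175, 159.5 and 165 under siMYCN and 209.8, 199.6 and 185 under siHAND2. The 3 groups did not overlap: each siMYCN library lay above each siCTR library and below each siHAND2 library. Relative to siCTR, the means stood at 119% in siMYCN and 142% in siHAND2. The log2 fold change was 0.25 in siMYCN (standard error 0.05, limma, adjusted p = 0.000769) and 0.50 in siHAND2 (standard error 0.05, adjusted p = 8.24e-07). The difference between the knockdowns was 0.25 (adjusted p = 0.00103). In siHAND2, 5.44% of all genes tested differed by at least as much, and in siMYCN 24.1% did. All 3 calls held in each of the 19 alternative fits. RefSeq lists 6 start windows for DNMT3A, which makes a long and a short protein from separate starts, and the gene-level values do not part them.

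DNMT3B (chromosome 20, 32762385 to 32809356), the other writer, was far lower. It measured 10.7, 10.9 and 9.35 CPM in the siCTR libraries, against 10.99, 12.6 and 11.6 with the MYCN siRNA and 11.2, 10.6 and 10.9 with the HAND2 siRNA. All 3 siMYCN values lay above all siCTR values, by 0.17 on the log2 scale (95% interval 0.01 to 0.34, limma, adjusted p = 0.0992), which missed the threshold. In siHAND2 the difference was 0.08 (-0.09 to 0.24, adjusted p = 0.478). At 10 CPM counting error amounts to a coefficient of variation between 5.53% and 6.89%, so a change of the size seen in DNMT3B is harder to resolve than the same change in DNMT3A.

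DNMT1 (chromosome 19, 10133345 to 10231286, minus strand), which maintains methylation through cell division, did not pass the test in any comparison. It had siCTR values of 228, 206 and 209 CPM, siMYCN values of 225, 206 and 216 CPM and siHAND2 values of 227, 218 and 207 CPM. The log2 fold change was 0.01 in siMYCN (95% interval -0.10 to 0.11, limma, adjusted p = 0.931) and 0.02 in siHAND2 (-0.09 to 0.13, adjusted p = 0.792), and both values changed sign after rescaling. The row of DNMT1 overlaps that of S1PR2 on the same strand, whose means were 18.6, 23.3 and 28.3 CPM in siCTR, siMYCN and siHAND2, and how shared reads were assigned is not stated.

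UHRF1 (chromosome 19, 4903080 to 4962154), which brings DNMT1 to newly replicated DNA, was higher in siMYCN by a call that depended on the processing. It gave 241, 225 and 227 CPM under the control siRNA, 283, 256 and 260.3 under siMYCN and 258, 242 and 214 under siHAND2. Every siMYCN library exceeded every siCTR library, while siHAND2 overlapped both groups. The log2 fold change in siMYCN was 0.20 (standard error 0.06, limma, adjusted p = 0.0133). It was 0.15 and no longer past the threshold after median-ratio rescaling (adjusted p = 0.0843) and after quantile normalization (adjusted p = 0.0756). The call was also lost with no intensity trend (adjusted p = 0.0601), without siCTR replicate 2 (0.19, adjusted p = 0.0569) and without siMYCN replicate 1 (0.16, adjusted p = 0.0674). In siHAND2 the value was 0.04 (95% interval -0.09 to 0.16, adjusted p = 0.680), with a sign that changed after median-ratio rescaling. The difference between the knockdowns, -0.17 (adjusted p = 0.0472), held in only 6 of the 19 alternative fits. It was lost in 8 of the 9 fits with a library removed, after both rescalings, with no filter, with 2 groups alone and with no intensity trend. Without siHAND2 replicate 3 it was -0.09 (adjusted p = 0.191).

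TET1 (chromosome 10, 68560337 to 68694487), the demethylating enzyme of the set, was not called against siCTR. It measured 108, 106 and 109.8 CPM in the siCTR libraries, against 96.2, 103 and 111 with the MYCN siRNA and 105, 113 and 125 with the HAND2 siRNA. The knockdown libraries spread to both sides of the narrow siCTR range. Its log2 fold change was -0.06 in siMYCN (95% interval -0.19 to 0.06, limma, adjusted p = 0.441) and 0.08 in siHAND2 (-0.05 to 0.21, adjusted p = 0.356). The difference between the knockdowns was 0.14 (0.01 to 0.27, adjusted p = 0.0933). That difference passed after median-ratio rescaling (0.16, adjusted p = 0.0467) and quantile normalization (0.17, adjusted p = 0.0342). It also passed without siMYCN replicate 3 (0.19, adjusted p = 0.0399) or siHAND2 replicate 1 (0.20, adjusted p = 0.0188).

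**Figure D3:**
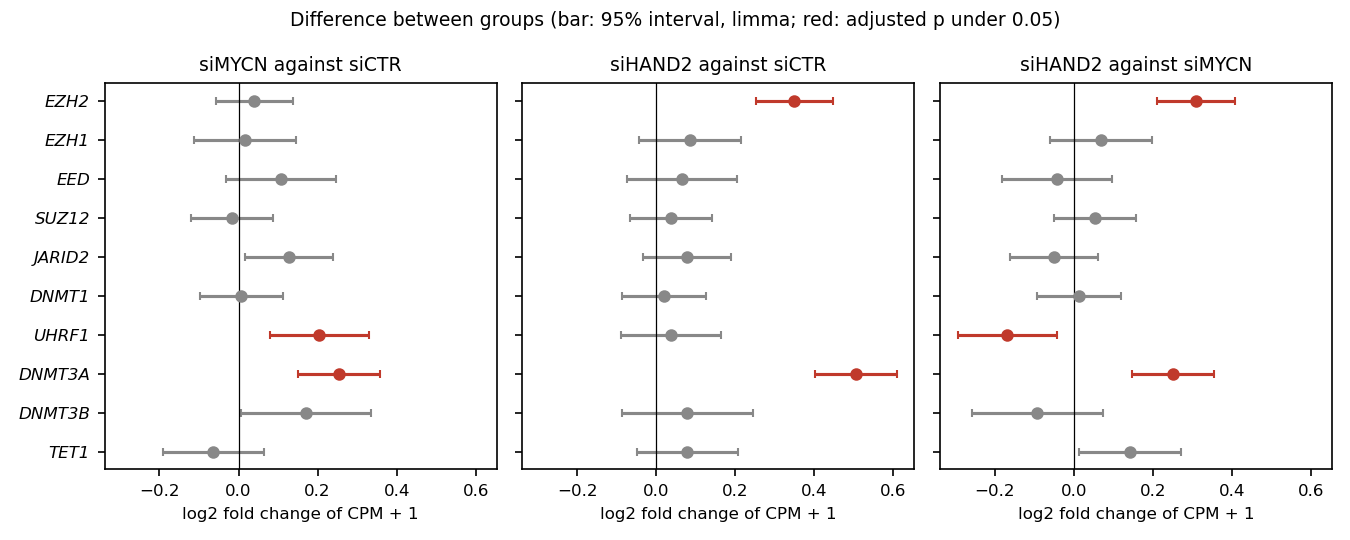
Log2 fold change of CPM + 1 for each member in the 3 comparisons, with 95% intervals from limma; red marks an adjusted p under 0.05. EZH2 (0.35) and DNMT3A (0.50) stand out in siHAND2, DNMT3A (0.25) and UHRF1 (0.20) in siMYCN, and intervals of the other members reach or come near 0.

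The 2 comparisons with siCTR share their control libraries, so values in the pair are not independent of each other. Side by side, the siMYCN and siHAND2 log2 fold changes were 0.04 and 0.35 for EZH2, 0.25 and 0.50 for DNMT3A, and 0.20 and 0.04 for UHRF1. Over the 9 libraries, the 3 genes whose log2(CPM + 1) followed EZH2 most closely, among 11200 genes averaging 5 CPM or more, were AC092645.2 (Pearson r = 0.988), AC008124.1 (0.987) and ADGRB3 (0.987). AC092645.2 averaged 3.75, 4.28 and 7.25 CPM over siCTR, siMYCN and siHAND2, so it reached the 5 CPM limit only through siHAND2, where EZH2 is also high, and its place in this order partly follows from that limit. ADGRB3, an adhesion receptor of the brain, averaged 21.4, 21.7 and 38.5 CPM over siCTR, siMYCN and siHAND2. DNMT3A was followed most closely by IGSF3 (0.994), SLC35E2B (0.990) and ZNF608 (0.987), and IGSF3 averaged 217, 257 and 298 CPM. UHRF1 was followed by SUPT6H (0.989), MYH9 (0.986) and SBF1 (0.984), and MYH9, a myosin heavy chain, averaged 180.3, 232 and 186 CPM. These correlations describe 9 libraries that share their group differences and depths.

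Other genes of the same systems were counted by role. Over all genes tested, 24.5% rose and 11.4% fell in siMYCN, and 18.1% rose and 11.8% fell in siHAND2. Of 9 PRC2 accessory subunits tested, 2 rose and 1 fell in each knockdown, beside list medians of 0.10 in siMYCN and 0.13 in siHAND2. EPOP, an elongin-binding subunit of PRC2, fell in both, from 25.9 ± 1.01 CPM in siCTR to 19.6 ± 1.72 in siMYCN (-0.39, limma, adjusted p = 0.000366) and to 21.2 ± 1.16 under siHAND2 (-0.28, adjusted p = 0.00577). The risen genes were PHF1 (0.34, adjusted p = 0.00414) and PHF19 (0.27, adjusted p = 0.000776) in siMYCN, both readers of methylated histone H3. In siHAND2 they were LCORL (0.41, adjusted p = 0.000176) and MTF2 (0.21, adjusted p = 0.0131). The MTF2 call was lost without siCTR replicate 2 and with no intensity trend. After either rescaling, 2 accessory subunits rose and 2 fell in siMYCN. In siHAND2 the accessory count rose to 4 higher without siHAND2 replicate 1 or replicate 3, and to 3 without siHAND2 replicate 2 or siMYCN replicate 1. Of the 2 H3K27 demethylases, which remove the mark of PRC2, KDM6A rose in siHAND2 (0.18, adjusted p = 0.0154), a call lost without siCTR replicate 1, and neither passed in siMYCN.

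PRC1 is the second Polycomb complex, which ubiquitinates histone H2A at many PRC2 sites. Of its 20 subunits tested, 7 rose and 1 fell in siMYCN, and 7 rose and 1 fell in siHAND2, with medians of 0.10 and 0.14. The shares over all genes were 24.5% higher and 11.4% lower in siMYCN, and 18.1% higher and 11.8% lower in siHAND2. After median-ratio rescaling 4 subunits rose and 1 fell in siMYCN, and 6 rose and 1 fell in siHAND2. The siMYCN count of rises was also 4 without siCTR replicate 2 or siMYCN replicate 3. BMI1, a core subunit that stimulates the ubiquitin ligase, rose from 57.3 ± 0.743 to 75.9 ± 4.18 CPM in siHAND2 (0.40, limma, adjusted p = 1.16e-05).

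Among all genes tested, 24.5% were higher and 11.4% lower in siMYCN, and 18.1% higher and 11.8% lower in siHAND2. Among the other factors of DNA methylation and demethylation, 9 of the 11 listed were tested. In siMYCN, 2 rose and 1 fell, and in siHAND2 3 rose and 2 fell, counts that moved by over 1.5 times under several alternatives. TET2, which like TET1 oxidises methylated cytosine, rose from 62.8 ± 2.01 CPM to 72.5 ± 4.30 in siMYCN (0.20, limma, adjusted p = 0.00768) and to 76.9 ± 4.29 under siHAND2 (0.29, adjusted p = 0.000756). The siMYCN call was lost without siMYCN replicate 3. GADD45A, a stress-induced gene also linked to demethylation, was 0.21 higher in siMYCN (adjusted p = 0.0178) and 0.23 lower in siHAND2 (-0.23, adjusted p = 0.0127). The GADD45A call in siMYCN was lost after both rescalings and also when replicate 1 or 3 of siCTR or replicate 2 of siMYCN was left out, while that in siHAND2 was lost without siCTR replicate 2. Of 8 genes from families that bind methylated CpG, 5 rose and 0 fell in siMYCN, and 2 rose and 0 fell in siHAND2. The siMYCN rises include MBD3 (limma, adjusted p = 0.0362), a call that held in 10 of the 19 alternative fits. ZBTB38 averaged 74.0 ± 1.96 CPM with the control siRNA, 95.8 ± 6.04 with siMYCN and 68.6 ± 3.05 with siHAND2, a difference of -0.48 between the knockdowns (adjusted p = 2.77e-06). With either rescaling of the libraries, 3 of these 8 genes rose in siMYCN, and in siHAND2 1 of them fell. Without siCTR replicate 2, 1 of them rose in siHAND2.

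The methyl donor cycle makes S-adenosylmethionine, which PRC2 and the DNA methyltransferases both consume, and clears the product that inhibits them. Of its 9 genes tested, 1 rose and 6 fell in siMYCN, with a median of -0.22, and 0 rose and 3 fell in siHAND2, with a median of -0.07. The all-gene shares were 24.5% higher and 11.4% lower in siMYCN, and 18.1% higher and 11.8% lower in siHAND2. AHCY, which removes that inhibitory product, fell from 351 ± 8.40 CPM to 269 ± 5.33 in siMYCN (-0.38, limma, adjusted p = 2.94e-06) and to 275.5 ± 10.9 under siHAND2 (-0.35, adjusted p = 6.97e-06). ADK fell by 0.40 in siMYCN and 0.24 in siHAND2, and MTR, methionine synthase, fell by 0.27 and 0.23. MAT2A and MAT2B, the subunits of the enzyme that makes S-adenosylmethionine, fell in siMYCN (-0.20 and -0.22), while in siHAND2 they changed by -0.05 and -0.03 and did not pass. The difference between the knockdowns was 0.20 for MAT2B (adjusted p = 0.00407) and 0.15 for MAT2A (adjusted p = 0.0385), and the MAT2A call was lost in 8 of the 19 alternative fits. MTRR also fell in siMYCN (-0.22, adjusted p = 0.0349), a call lost in 6 of the 19 alternative fits.

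**Figure D4:**
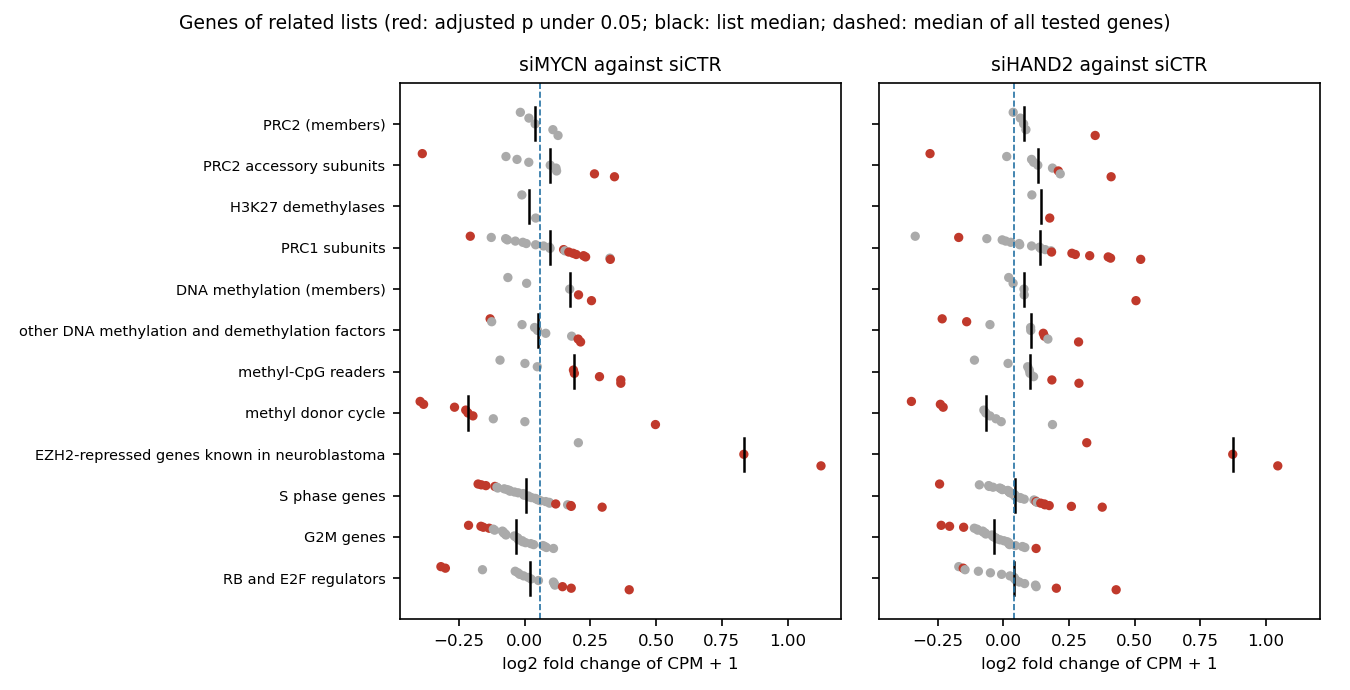
Log2 fold change of CPM + 1 of every tested gene of the related lists against siCTR, in siMYCN (left) and siHAND2 (right); red marks an adjusted p under 0.05, black ticks are list medians and the dashed line is the median of all tested genes (0.06 and 0.04). The median of the methyl donor cycle lies left of the line in siMYCN (-0.22) and nearer to it in siHAND2 (-0.07).

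Genes that PRC2 or DNA methylation are known to silence gave few values. CASZ1, CLU and NGFR have been described as repressed by EZH2 in neuroblastoma. CASZ1 and NGFR were near the filter of 1 CPM in siCTR, and CLU was higher. CASZ1, a zinc finger factor, averaged 1.30 ± 0.0658 CPM with the control siRNA, 1.66 ± 0.268 with siMYCN and 3.76 ± 0.504 with siHAND2. Its log2 fold change in siHAND2 was 1.04 (limma, adjusted p = 5.10e-06). CLU rose from 11.97 ± 1.13 to 22.1 ± 0.656 CPM in siMYCN (0.83, adjusted p = 7.72e-07) and to 15.2 ± 1.34 in siHAND2 (0.32, adjusted p = 0.00546). NGFR, a neurotrophin receptor, rose from 1.68 ± 0.262 to 4.86 ± 0.447 CPM in siMYCN (1.13, adjusted p = 9.17e-06) and to 3.97 ± 0.955 in siHAND2 (0.87, adjusted p = 0.000125). Of 20 germline genes that promoter methylation commonly silences, 6 had a row and only SYCP3 passed the filter, at 0.795 ± 0.276, 0.805 ± 0.124 and 1.00 ± 0.149 CPM in the 3 groups, with no call. The 6 together summed to between 1.06 and 1.75 CPM in every library. DNA and histone methylation themselves were not measured.

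Because EZH2, DNMT1 and UHRF1 are more abundant in dividing cells, genes of the cell cycle are given beside them. The S phase list shares genes with the RB and E2F list, and shares PCNA with the other DNA methylation factors. Calls of shared genes are counted in each list. Over all genes tested, 24.5% rose and 11.4% fell in siMYCN, and 18.1% rose and 11.8% fell in siHAND2. Of 30 S phase genes, 4 rose and 4 fell in siMYCN, and 7 rose and 1 fell in siHAND2, with medians of 0.01 and 0.04. After median-ratio rescaling these counts were 1 higher and 8 lower in siMYCN and 3 higher and 1 lower in siHAND2. In siHAND2 the number of rises was also 3 without siCTR replicate 1 or siCTR replicate 2. RRM2, a subunit of ribonucleotide reductase, measured 174 ± 3.34 CPM in siCTR and 208 ± 4.85 in siHAND2 (0.26, limma, adjusted p = 8.60e-05). Of 25 G2M genes, 0 rose and 4 fell in siMYCN, and 1 rose and 3 fell in siHAND2, with medians of -0.03 and -0.04. PLK1, a mitotic kinase, fell in siHAND2 (-0.24, adjusted p = 0.00298). Of 16 regulators of the RB and E2F pathway, which drives S phase genes, 3 rose and 2 fell in siMYCN, and 2 rose and 1 fell in siHAND2. E2F8 rose in both (0.40 and 0.43, adjusted p = 0.00327 and 0.00226), and TFDP2 fell in both (-0.30 and -0.15, adjusted p = 6.99e-05 and 0.0160), the latter call being lost without siCTR replicate 2 or siHAND2 replicate 1. After median-ratio rescaling, 0 G2M genes rose and 9 fell in siMYCN, and 0 rose and 7 fell in siHAND2. For the RB and E2F genes it gave 1 higher and 3 lower in siMYCN, and 2 higher and 3 lower in siHAND2. With 1 library left out, falls among the G2M genes ran from 2 to 6 in siMYCN and from 1 to 6 in siHAND2, and rises among the RB and E2F genes from 1 to 4 and from 1 to 2. The part of the cell cycle in the EZH2 difference was not tested.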

How the data were processed

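The authors deposited 1 table of CPM (reads scaled to the total assigned to genes in each library, plus a constant of 0.0001) for 25084 genes, with every value column mapped to 1 of 9 libraries by name. The aligner was STAR, per the file headers. Version 2.5.1 of STAR, Partek and the builds hg19 and GRCh37 stand in the submitters' processing notes, without roles. Of 18215 symbols found in a RefSeq table, 91.4% had a start within 5000 bp on GRCh38, so coordinates are given as GRCh38. The counting tool, strand use and filters are not given in the sources used here.

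Low CPM values were whole multiples of 1 read's worth (within 0.02) for 79.3% to 80.8% of values up to 20 reads. That is under the 95% needed for a count test, so the steps gave only depth. Counting error covers counting only. log2(CPM + 1) of the 14495 genes that reached 1 CPM in 3 or more libraries was fitted in 1 model of 3 groups with limma 3.58.1 in R 4.3.3 (intensity trend, 10.1 prior degrees of freedom), two-sided, with Benjamini-Hochberg adjustment and a threshold of 0.05. Fold changes on this scale understate those of low genes. On simulated data with 197 to 199 changed genes tested, the model called 22.7% of them at a true log2 change of 0.3. It called 79.2% at 0.5 and 96.5% at 1. The simulated spread beyond counting was 1 preset value for all genes and was not estimated from these libraries. Many more genes were called in the real data, where the median absolute log2 fold change of called genes was 0.285 in siMYCN. These shares are thus a rough guide and do not give the share of changes missed here. Promoter windows are from RefSeq and matched all 10 members. Transcript lengths are from a GRCh37 annotation, by symbol.

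Named genes were the 10 members, MYCN and HAND2, the 3 genes closest to EZH2, UHRF1 and DNMT3A, any gene of related lists of up to 11 genes, and from longer lists the called gene with the smallest p against siCTR. Members and lists were chosen with earlier results of these data known. Alternatives changed the pseudocount, filter, scaling, trend, weights (vooma), libraries fitted and replicate block, and left out each library. Values of 3 genes of the related lists are not reported here.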

Additional observations from a re-analysis of the deposited data

How the results depend on the processing

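The EZH2 rise in siHAND2 and the DNMT3A rises kept their direction and call under every alternative, with 0.31 to 0.37 for EZH2 and 0.46 to 0.55 for DNMT3A in siHAND2 and 0.19 to 0.28 for DNMT3A in siMYCN. The number of members called in siMYCN fell from 2 to 1 after median-ratio rescaling, after quantile normalization and with no intensity trend, each time by the loss of UHRF1, and ran from 1 to 3 when 1 library was left out. It ran from 2 to 3 in siHAND2 and from 2 to 4 between the knockdowns. Median-ratio rescaling moved the median of all genes in siMYCN from 0.06 to 0.0085, and both rescalings moved the share of called genes that were higher from 68.3% to 51.2% (median-ratio) or 49.3% (quantile) in siMYCN and from 60.6% to 47.1% or 47.8% in siHAND2. Several values that were not called changed sign. After median-ratio rescaling these were EZH2 (-0.017), EZH1 (-0.040) and DNMT1 (-0.050) in siMYCN, and SUZ12 (-0.0026), DNMT1 (-0.020) and UHRF1 (-0.0034) in siHAND2. After quantile normalization they were EZH2 (-0.018), EZH1 (-0.025) and DNMT1 (-0.058) in siMYCN and DNMT1 (-0.0037) in siHAND2. With 1 library left out, siMYCN values ran from -0.0086 to 0.046 for EZH1, -0.051 to 0.023 for SUZ12 and -0.023 to 0.053 for DNMT1, siHAND2 values from -0.012 to 0.066 for DNMT1 and -0.023 to 0.11 for UHRF1, and differences between the knockdowns from -0.092 to 0.021 for EED, -0.078 to 0.0047 for JARID2 and -0.019 to 0.048 for DNMT1. The difference from siCTR in the log2 ratio of EZH2 to EZH1 ran from -0.037 to 0.071 in siMYCN and from 0.21 to 0.30 in siHAND2. The causes of these changes were not tested.

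Replicate numbers are shared by the groups, but only 6 of 9 same-numbered pairs of libraries had deviations correlated above 0.1 (range -0.04 to 0.30), so the numbers were not taken as pairing the samples. Of 18 pairs with different numbers, 2 exceeded 0.1 (range -0.30 to 0.14), and the same-numbered pairs of replicates 1 and 3 all exceeded it while those of replicate 2 did not, which is a hint of shared numbers from the data and not from the design. With a replicate block the members called were 3 in siMYCN (JARID2 added), 2 in siHAND2 and 4 between the knockdowns (TET1 added), and the paired EZH2 to EZH1 ratio differed by 0.26 in siHAND2 (exact sign-flip p = 0.25, the smallest possible) and 0.02 in siMYCN. Depth limits DNMT3B most, the member with the fewest reads.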
